A study of Homo sapiens with 15 samples.

Results

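Nuclear-encoded subunits of respiratory complex I were followed in cytoplasmic and polysomal RNA of human cells with a normal or a raised level of GEMIN5. The members were the genes of the count table whose symbols read NDUFA, NDUFB, NDUFC, NDUFS or NDUFV followed by digits only, plus NDUFAB1, the mitochondrial acyl carrier protein. Assembly factors, whose symbols start with NDUFAF, were not members. The rule found 38 of 21519 genes and 794 of 721551 splicing events. Levels took no part in the choice.

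The cells were HEK-293, an established human embryonic kidney line. GEMIN5 cells had received the plasmid pcDNA3Xpress-Gemin5 with Lipofectamine LTX and were harvested 24 h later, while control cells were untreated, so that GEMIN5 and the transfection itself cannot be told apart in any comparison. GEMIN5 binds RNA and belongs to the SMN complex, where it picks out the small nuclear RNAs that become spliceosomal particles. Cytoplasmic lysate, called Input, was sequenced from 4 control and 3 GEMIN5 samples. Polysome libraries, pooled from fractions 8 to 12 of 12 of a sucrose gradient, came from 4 control and 4 GEMIN5 samples. All cells were treated with cycloheximide, which halts elongating ribosomes, before lysis, and all libraries were made from poly(A) RNA. Samples are called independent in the labels, with no word on separate cultures, and the p-values therefore cover the spread among these libraries, which may be technical.

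Complex I, or NADH:ubiquinone oxidoreductase, takes electrons from NADH in the mitochondrial matrix, passes them along a chain of iron-sulfur clusters to ubiquinone, and uses the energy to pump protons across the inner membrane. Its peripheral arm, which carries the redox centres, stands in the matrix, and its membrane arm holds the proton pumps. The catalytic core of the peripheral arm is encoded in the nucleus, and that of the membrane arm in mitochondrial DNA. The many accessory subunits around both arms are nuclear genes, translated in the cytosol and imported, and most of them are small proteins with short mRNAs. NDUFA4 carries a complex I name but is a subunit of cytochrome c oxidase, complex IV.

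Total counts lay between 11191417 and 18407933 per library. GEMIN5 itself checked the labels, with 12.4 to 15.9 CPM in Input control, 1319 to 1543 CPM in Input GEMIN5, 4.19 to 7.18 CPM in Polysome control and 647 to 1035 CPM in Polysome GEMIN5. CPM here means counts per 1000000 counts of a library after trimmed-mean (TMM) scaling, which sets the bulk of genes level between libraries. The TMM factors were 0.971 to 1.03 in Input control but 0.354 to 0.488 in Input GEMIN5, where ribosomal protein genes took 57.8% ± 2.59 (SD, n = 3) of all counts against 34.5% ± 0.53 (SD, n = 4) in Input control. Polysome factors were 1.27 to 1.55. Summed markers of the HEK-293 line (6 of 6 detected in each group) were 882 to 1075 CPM in Input control, 665 to 783 in Input GEMIN5, 372 to 594 in Polysome control and 358 to 449 in Polysome GEMIN5. Of these 6 markers, 3 fell in Input GEMIN5, none rose, and none was called in polysomes. Summed liver and blood markers (22 genes), which the line should lack, were 3.93 and 2.47 CPM in Input control replicates 1 and 2 but 134 and 117 CPM in replicates 3 and 4, and 77.9 to 150 CPM in all 4 Polysome control libraries. In the GEMIN5 groups they were 8.90 to 14.1 CPM (Input, 13 of 22 at 0) and 1.79 to 2.76 CPM (Polysome, 9 of 22 at 0). Of the 22, 8 fell and 2 rose in Input, and 11 fell in polysomes. With scaling to library size only, 18 of the 22 and all 6 HEK-293 markers were called lower in Input and none of either list higher, and 8 of the 22 fell in polysomes. Their part in the results below was not tested beyond leaving out Input control replicates 3 and 4. No Polysome control library was free of them.

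Of the 38 members, 31 passed the filter on low counts and were tested, with 178 or more counts in every library. The other 7 were NDUFA7, NDUFA9, NDUFC2 (0 counts in every library), NDUFB5 (0 to 1), NDUFA13 (0 to 6), NDUFB8 (0 to 14) and NDUFA11 (1 to 21). Each of these 7 lay with 96.3% to 100% of its span under another gene of the table on the same strand, such as the read-through gene NDUFC2-KCTD14, whereas no tested member exceeded 41.8% (NDUFS3 under PTPMT1). These partners held 0 to 78 counts over all 15 libraries. The splicing table, which counts reads over exon junctions on its own, did hold reads for 6 of the 7. NDUFA11, a membrane-arm subunit, had 218 ± 11.8 spliced reads per 1000000 counts in Input control and 406 ± 54.0 in Input GEMIN5. NDUFA13, also known as GRIM-19, had 130 ± 6.08 and 147 ± 8.47. NDUFC2 had 96.4 ± 2.88 and 122 ± 3.68, and NDUFB8 had 125 ± 4.76 and 117 ± 6.82. NDUFA7 had 74.7 ± 3.93 and 134 ± 3.94, NDUFB5 11.3 ± 1.34 and 7.45 ± 0.75 (SD, n = 4 and 3 throughout), and NDUFA9 was listed at 0. Counts and junction reads thus differ for these 6 genes, and all 7 are left out of the gene tests below.

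Per kilobase of principal transcript, the most abundant members in Input control were NDUFS5 (1233 ± 85.7 CPM per kb, SD, n = 4) and NDUFB10 (1101 ± 51.8), both of the membrane arm, whose ranges of 1108 to 1300 and 1028 to 1140 overlapped. NDUFA1 (795 ± 69.6) and NDUFB9 (768 ± 50.3) followed and overlapped as well. The lowest tested members were NDUFA5 (39.7 ± 4.52), NDUFV3 (32.4 ± 2.00), NDUFA10 (20.6 ± 1.21) and NDUFS1 (5.09 ± 0.16). The value of NDUFS1 rests on a principal transcript of 11819 nt, and its shortest principal transcript has 2371 nt.

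In the lysate, most complex I mRNAs were higher in GEMIN5 cells. Of 31 tested members, 27 rose and 3 fell, with a median log2 fold change of 1.61. Over all 12197 tested genes the same test (edgeR quasi-likelihood, adjusted p under 0.05) called 27.1% higher and 24.3% lower, with a median of −0.01. The groups did not overlap for any of the 30 called members, but overlap was not counted over all called genes, so this is not a trait of the members. The change was uneven across the complex: 14 of 15 tested accessory subunits of the membrane arm rose (median 2.01), 7 of 7 of the peripheral arm rose (median 1.38), and 4 of the 7 core subunits rose (median 0.96). With library size in place of TMM, 11 membrane-arm subunits were higher and 2 lower (median 0.72), 3 peripheral-arm subunits higher and 2 lower (median 0.08), and 1 core subunit higher and 4 lower (median −0.34), so that the direction of the core class turned. In bulk RNA, a change in the share of cells and a change in RNA per cell cannot be told apart.

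Among the core subunits, NDUFS8 and NDUFS7 carry iron-sulfur clusters next to the quinone site. NDUFS8 measured 430, 479, 449 and 439 CPM in the Input control libraries and 1282, 1924 and 1767 CPM in Input GEMIN5. Every GEMIN5 library stood far above every control, a 3.69-fold rise (log2 1.88, SE 0.20, edgeR adjusted p = 2.44e-07). NDUFS7 measured 252, 279, 262 and 264 CPM against 552, 977 and 872 CPM, a 3.03-fold rise in which replicate 1 was the lowest GEMIN5 library (log2 1.60, SE 0.19, edgeR adjusted p = 1.20e-06). NDUFV2, an iron-sulfur protein of the NADH-oxidising tip, went from 234, 241, 222 and 205 CPM to 459, 476 and 457 CPM (log2 1.04, SE 0.15, edgeR adjusted p = 8.85e-06). NDUFS3, which lies in the stalk of the peripheral arm, went from 300.3, 331, 309 and 281 CPM to 517, 633 and 634 CPM (log2 0.96, SE 0.14, edgeR adjusted p = 1.65e-05). Both stood apart from control in all libraries on this scale, but with scaling to library size only the change was −0.25 for NDUFV2 (edgeR adjusted p = 0.0749) and −0.34 for NDUFS3 (edgeR adjusted p = 0.00447), and NDUFS7 was no longer called (0.26, edgeR adjusted p = 0.0739).

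The other core subunits behaved differently. NDUFS1, the large subunit with several iron-sulfur clusters, measured 58.7, 59.1, 63.0 and 59.98 CPM in control and 39.4, 29.2 and 29.8 CPM in GEMIN5 cells. All 3 GEMIN5 libraries lay below all controls, a 1.83-fold fall (log2 −0.87, SE 0.13, edgeR adjusted p = 2.59e-05). NDUFV1, which binds FMN and takes the electrons from NADH, measured 373, 406, 382 and 405 CPM against 288, 377 and 353 CPM. Its groups overlapped, and it was not called (log2 −0.21, SE 0.12, edgeR adjusted p = 0.161). Without Input GEMIN5 replicate 2 it was called lower (−0.53, edgeR adjusted p = 0.0138).

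Accessory subunits held the largest rises. NDUFB1, a small single-span protein of the membrane arm, measured 219, 227, 223 and 195 CPM in control and 1307, 1463 and 1297 CPM in GEMIN5 cells. The 6.28-fold rise was the largest of the members (log2 2.65, SE 0.19, edgeR adjusted p = 9.80e-09). NDUFA3, also of the membrane arm, went from 286, 289.98, 323 and 271 CPM to 1350.01, 2046 and 1879.7 CPM (6.01-fold, log2 2.59, SE 0.22, edgeR adjusted p = 3.10e-08). In both genes the lowest GEMIN5 library was several times the highest control. NDUFA2, a thioredoxin-fold subunit of the peripheral arm, rose 4.44-fold, from 212, 235, 229 and 209 CPM to 812, 1109 and 1025 CPM (log2 2.15, SE 0.17, edgeR adjusted p = 2.05e-08). NDUFA4, the complex IV subunit, rose 4.87-fold, from 644, 714, 689 and 603 CPM to 2623, 3565 and 3487 CPM (log2 2.28, SE 0.18, edgeR adjusted p = 1.58e-08). It thus moved with the complex I genes. With library size only, the log2 values were 1.36 for NDUFB1, 1.27 for NDUFA3, 0.84 for NDUFA2 and 0.97 for NDUFA4, all still called higher.

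Further accessory subunits rose by less. NDUFB9 went from 555, 579, 555 and 495 CPM to 1889, 2605 and 2307 CPM (4.15-fold), and NDUFB2 from 362, 419, 386 and 349.7 CPM to 1353, 1777 and 1486 CPM (4.06-fold). NDUFB7 and NDUFS5 carry the twin cysteine motif of proteins of the intermembrane space. NDUFB7 measured 324, 379, 346 and 331 CPM against 911, 1462 and 1240 CPM (3.49-fold), and NDUFS5 685, 712, 698 and 607 CPM against 1858, 2375 and 2089 CPM (3.12-fold). NDUFS6, a zinc-binding subunit, measured 332, 360.2, 332 and 310.1 CPM against 812, 934 and 858 CPM (log2 1.38), a call that was lost with library size only (0.084, edgeR adjusted p = 0.561). The acyl carrier protein NDUFAB1, which sits in both arms and also serves mitochondrial fatty acid synthesis, measured 431, 494, 459 and 431 CPM against 1196, 1421 and 1380 CPM (2.94-fold, log2 1.55, SE 0.16, edgeR adjusted p = 2.26e-07). Each of these 6 genes was called and had no overlap between the groups, which was not counted over all called genes. The remaining called accessory subunits, NDUFA12 (0.78), NDUFA8 (0.90), NDUFS4 (1.21), NDUFB6 (1.26), NDUFB10 (1.59), NDUFA6 (1.61), NDUFB4 (1.93), NDUFB3 (2.01), NDUFV3 (2.02), NDUFA1 (2.06), NDUFC1 (2.09) and NDUFB11 (2.12), rose by the log2 values given. Scaled to library size only, NDUFB10, NDUFS4 and NDUFB6 among these were not called, and NDUFA12 and NDUFA8 were called lower.

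At the other end stood NDUFA5 and NDUFA10. NDUFA5, a peripheral-arm subunit, measured 86.0, 78.4, 70.9 and 66.4 CPM in control and 113, 99.8 and 94.9 CPM in GEMIN5 cells, a small rise (log2 0.44, SE 0.12, edgeR adjusted p = 0.00383). The call was lost without Input GEMIN5 replicate 2 (0.23, edgeR adjusted p = 0.258) and without Input control replicates 3 and 4 (0.28, edgeR adjusted p = 0.134), and the sign turned with library size only (−0.83). NDUFA10, a nucleoside-kinase-like protein, was the one membrane-arm member that fell, from 93.2, 105, 106 and 99.9 CPM to 63.8, 70.8 and 64.1 CPM (log2 −0.61, SE 0.13, edgeR adjusted p = 6.38e-04).

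**Figure D1:**
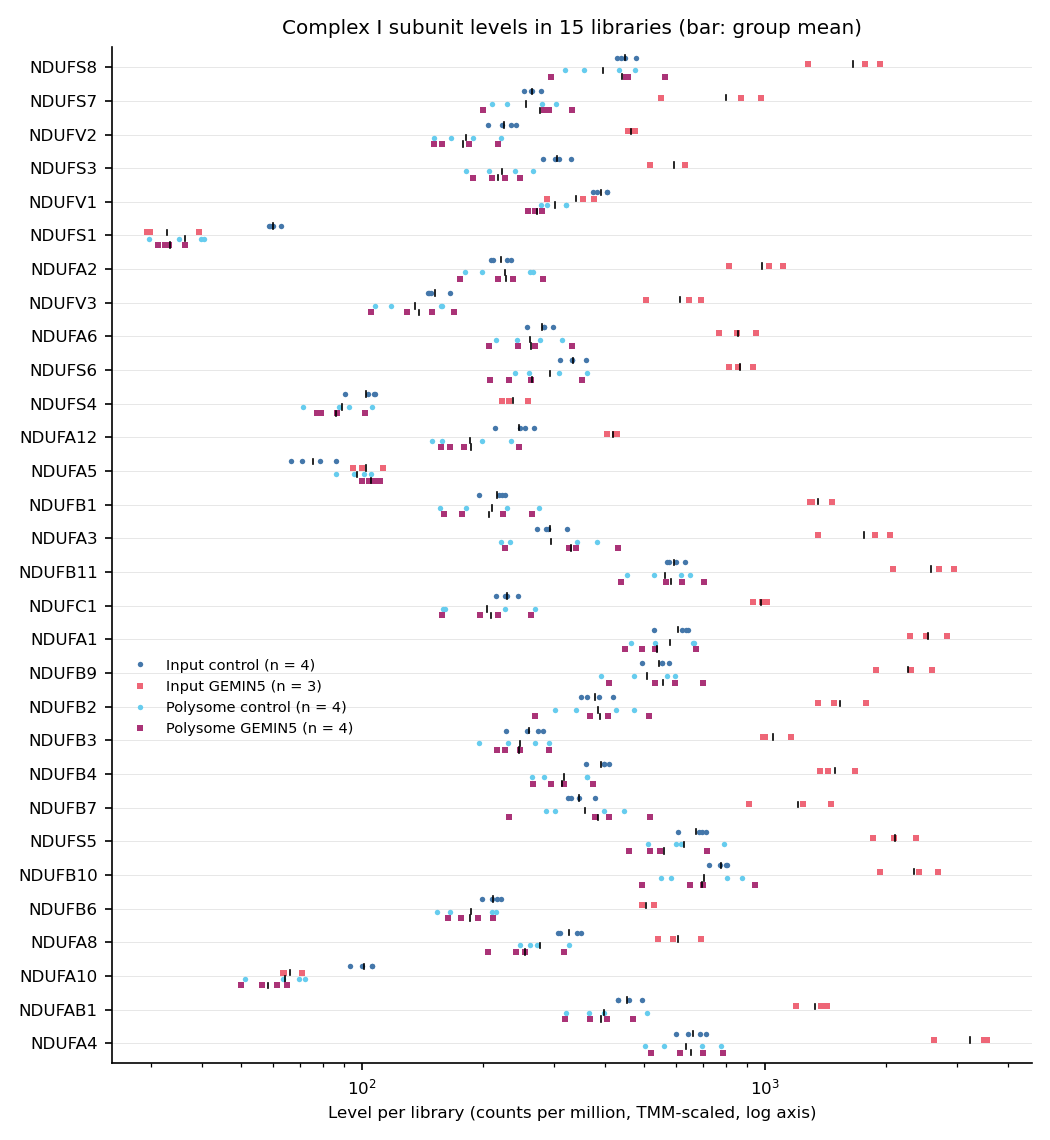
Level of each of 30 tested genes in each library, in CPM after TMM scaling on a log axis (bars mark group means, n = 4 in each group except Input GEMIN5 with n = 3). Input GEMIN5 stands to the right of the other groups for most genes, and to the left of Input control for NDUFS1 and NDUFA10.

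The scale decides how much of this is a rise. With library size in place of TMM the median of all genes in the same comparison moved to −1.29, with 4.96% called higher and 76.0% lower by edgeR. The members' median was then 0.31, with 17 higher and 8 lower. The distance between the members and the bulk of genes stayed about the same. This had to be so, since a scaling factor moves all genes of a library together, and it is no result about the members. Among the 8 were NDUFS1 (−2.13), NDUFA10 (−1.90), NDUFV1 (−1.52), NDUFA5 (−0.83), NDUFA12 (−0.51), NDUFA8 (−0.40) and NDUFS3 (−0.34). As a share of all counts the 38 members held 1.03% ± 0.031 (SD, n = 4; 1.00% to 1.07%) in Input control and 1.40% ± 0.071 (SD, n = 3; 1.33% to 1.47%) in Input GEMIN5, without overlap. With ribosomal protein and mitochondrially encoded genes taken out of the total, the shares were 1.68% and 3.47%. Mitochondrially encoded genes themselves made up 4.22% ± 0.39 and 1.77% ± 0.31 of all counts.

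Related genes were read in the same comparison from lists. Of 35 tested nuclear subunits of complexes II to V, 29 rose and none fell (median 1.57), among them UQCRQ (2.62) of complex III and ATP5F1E (2.84) of ATP synthase. Of 20 complex I assembly factors, 14 rose and 1 fell (median 0.65). NDUFAF8 (2.19) and NDUFAF3 (1.75) rose most, and NUBPL, which delivers iron-sulfur clusters to the complex, fell (−0.49). Of the 7 mitochondrially encoded complex I subunits, MT-ND1 (0.84), MT-ND2 (0.95) and MT-ND3 (0.69) rose and MT-ND6 fell (−0.86). Among 9 transcriptional regulators of respiratory chain genes, the coactivator PPRC1 rose (0.84), while GABPA (−1.33), TFAM (−1.08) and YY1 (−1.11) fell. NRF1, a nuclear respiratory factor, measured −0.58 and was not called (edgeR adjusted p = 0.111). These counts moved with the scale as well. On the library-size scale 17 of the complex II to V subunits were higher and 10 lower (median 0.29), and 3 assembly factors were higher and 12 lower (median −0.65). No mitochondrially encoded subunit was then higher and 5 were lower, and no regulator was higher and 7 were lower, so that the rises of MT-ND1, MT-ND2, MT-ND3 and PPRC1 were not found on that scale.

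Promoters were searched for the motifs of 3 factors tied to respiratory genes. RefSeq promoters (GRCh38.p14, 250 bases before to 50 after each start) were at hand for 32 of the 38 members and for 27305 genes in all, and both strands were read. The NRF1 motif was in 6 members (18.8%, against 6.98% of all genes), the ETS motif bound by GABPA in 5 (15.6% against 12.2%) and the YY1 motif in 5 (15.6% against 1.46%). The YY1 matches, in NDUFS4, NDUFB8, NDUFA9, NDUFS7 and NDUFA6, all lay on the coding strand and began 11 to 26 bases after the start. This motif holds the start codon ATG, and whether these matches lie at the start of the coding sequence was not tested. NDUFA9 and NDUFB8 are among the members left out of the gene tests. A match describes the letters alone, and whether it goes with the Input change was not tested. One window for each motif is shown, from a core subunit that rose, the accessory subunit with the second largest rise and a core subunit that fell, with the matched bases in capitals.
NDUFS7, YY1 motif (chr19:1383914-1383943, plus strand): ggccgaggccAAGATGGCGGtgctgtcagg
NDUFA3, NRF1 motif (chr19:54102772-54102801, plus strand): gtgctccaggGCGCACGCGCagccctggga
NDUFS1, ETS motif read on the opposite strand (chr2:206159583-206159612, minus strand): ggctggggccaCTTCCGGcggaactgcggg

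In polysomes the same transfection left no called difference in any member. None of 31 passed in either direction, where 0.082% of all tested genes were called higher and 0.32% lower (edgeR, 10 and 39 genes, and 706 at an unadjusted p under 0.05). Of the 39 genes called lower, 11 were liver and blood markers. The members' median log2 fold change was −0.01, and the 30 given here ran from −0.17 to 0.17. The groups overlapped for all 31, which was likewise not counted over all genes.

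The differences of the named members were small. NDUFA3 measured 383, 342, 221 and 233 CPM against 339, 327, 226 and 431 CPM (log2 0.17, SE 0.20, edgeR adjusted p = 0.974). NDUFB1, the member with the largest rise in Input, measured 229, 275, 156 and 181 CPM against 224, 177, 160.05 and 264 CPM (log2 −0.03, SE 0.17). Polysome control replicates 3 and 4 and Polysome GEMIN5 replicate 3 were the low libraries in NDUFA3 and in most short members. Without these 3 libraries, a choice made after seeing the values, 32 members passed the filter and none was called.

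Other members named here lay as close together. NDUFS5 measured 618, 793, 511 and 602 CPM against 549, 517, 459 and 716 CPM (−0.17), and NDUFS6 307, 362, 239.6 and 260.1 CPM against 263, 232, 208 and 351 CPM (−0.15). NDUFV1 measured 288, 320.5, 277 and 321 CPM against 279, 280.3, 258 and 269 CPM (−0.15). NDUFA10 measured 51.3, 63.8, 69.7 and 72.0 CPM against 56.5, 61.4, 65.0 and 50.0 CPM (−0.14). The groups overlapped for each of them. NDUFS8 ran from 319 to 475 CPM and from 294 to 565 CPM (0.16), NDUFB9 from 392 to 599.1 and from 410 to 700.2 (0.14), NDUFA5 from 86.3 to 105 and from 100.2 to 111 (0.12), and NDUFS7 from 210 to 303 and from 199 to 331 (0.11). No gene of the assembly factor, regulator, mitochondrially encoded or complex II to V lists was called in polysomes either. As a share of all counts the members held 1.32% ± 0.14 in Polysome control and 1.31% ± 0.18 in Polysome GEMIN5 (SD, n = 4 each).

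**Figure D2:**
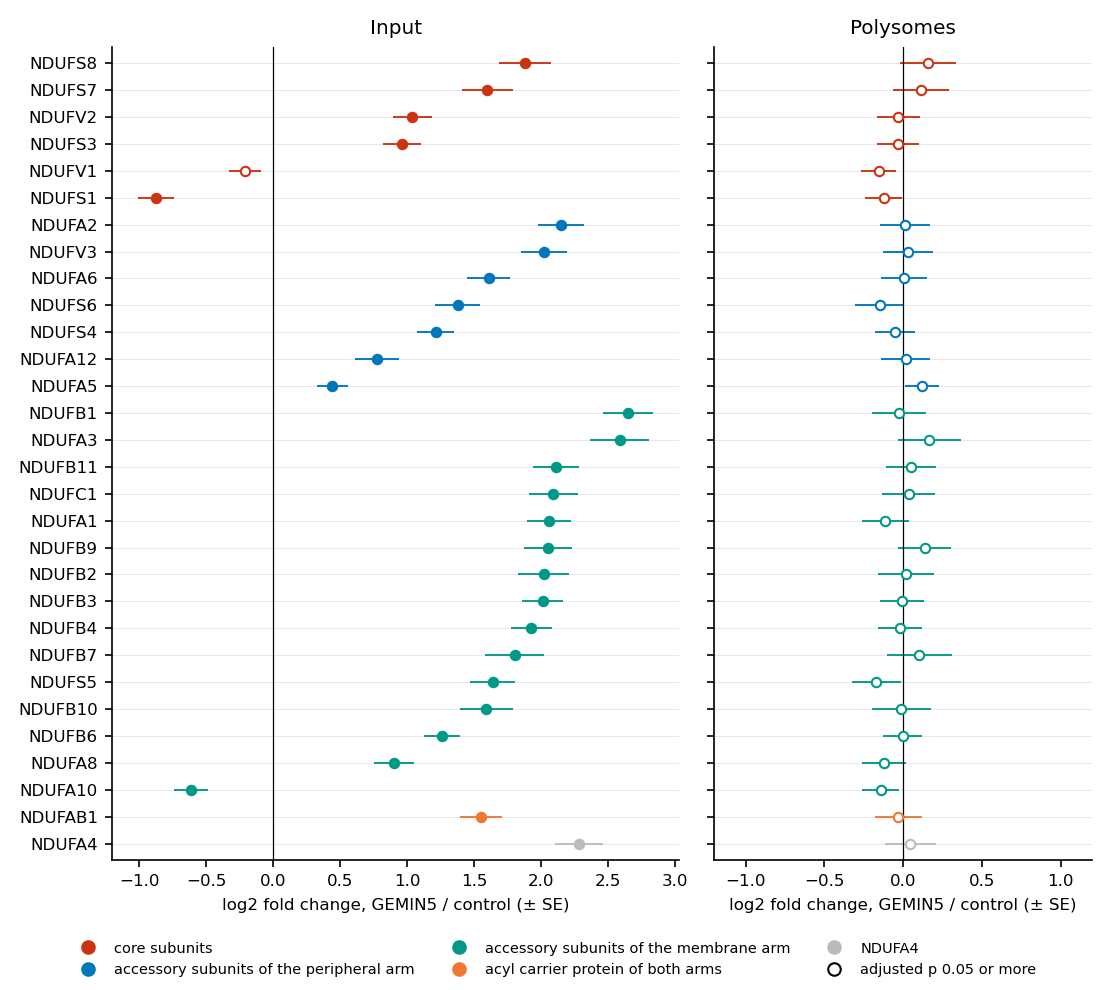
log2 fold change of GEMIN5 against control with its standard error, in Input (left) and polysomes (right), for 30 tested genes grouped by role (open symbols: adjusted p of 0.05 or more). Input values run from −0.87 to 2.65, and polysome values all lie between −0.17 and 0.17.

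The 2 effects were compared directly. The GEMIN5 effect was lower in polysomes than in Input for 26 members and higher for 2, with a median difference of −1.61 on the log2 scale, while edgeR called 16.9% of all genes higher and 20.5% lower. NDUFB1 had the largest difference (−2.68). NDUFS1 (0.75) and NDUFA10 (0.47) were the higher ones, and NDUFA5 and NDUFV1 were among those not called. With library size only, 7 members were higher and 13 lower, against 69.0% and 3.17% of all genes, and the sign turned for 7 members.

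Polysomes were also set against Input within each kind of cell, which asks how much of an mRNA is found on several ribosomes. In control cells 6 members were lower in polysomes and 1 was higher, with a median of −0.17 (all genes 0.02, with 24.1% called higher and 19.1% lower by edgeR). NDUFS1 fell from 58.7 to 63.0 CPM to 29.6 to 40.5 CPM (log2 −0.73, SE 0.12, edgeR adjusted p = 8.71e-05), and NDUFA10 from 93.2 to 106 CPM to 51.3 to 72.0 CPM (log2 −0.66, SE 0.12, edgeR adjusted p = 2.07e-04). NDUFS3 (239, 265, 181 and 207 CPM in polysomes, log2 −0.45, edgeR adjusted p = 0.00994) and NDUFV1 (log2 −0.38, edgeR adjusted p = 0.0103) were lower with no overlap, and NDUFA12 was lower with overlap (log2 −0.41, edgeR adjusted p = 0.0414).

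NDUFA5, at 105, 101, 86.3 and 95.7 CPM in Polysome control, was the member that was higher there (log2 0.36, SE 0.11, edgeR adjusted p = 0.0106). Without Input control replicates 3 and 4, which carried the liver and blood markers, 4 members were called and all 4 were lower, and NDUFA5 (0.24, edgeR adjusted p = 0.208) and NDUFV1 (−0.37, edgeR adjusted p = 0.0769) were not among them. NDUFS3 was not called without the 3 low polysome libraries (−0.27, edgeR adjusted p = 0.115). With library size only, 22 members were higher and none lower (median 0.34, against 53.2% of all genes higher and 4.59% lower), so the direction of most of these small differences depends on the scale. The mitochondrially encoded subunits, which are translated inside the organelle, were lower in polysomes for 7 of 7 genes (median −2.62).

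In GEMIN5 cells 27 of 31 members were lower in polysomes than in Input and none higher (median −1.75), where edgeR called 32.6% of all genes higher and 35.0% lower. NDUFB1 fell 6.57-fold, from 1297 to 1463 CPM in Input GEMIN5 to 160.05 to 264 CPM in Polysome GEMIN5 (log2 −2.72, SE 0.19, edgeR adjusted p = 8.23e-10). NDUFA10 (−0.18), NDUFS1 (0.02) and NDUFA5 (0.04) were among those not called. This comparison shares its Input libraries with the lysate comparison above, so the 2 are not independent. With library size only, 12 members were higher and 10 lower, against 84.5% and 3.81% of all genes.

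Transcript length set the members apart from other genes and ran along the Input change. The median principal transcript of the tested members was 958 nt long, against 3203 nt over all tested genes with a length. Of 191 tested genes under 700 nt, 90.6% rose in Input GEMIN5 (median log2 1.93), members included (6 of 6). From 700 to under 1000 nt 85.8% of 387 genes rose (members 11 of 11), and from 1000 to under 1500 nt 59.3% of 932 (members 6 of 6). From 1500 to under 2500 nt it was 28.5% of 2840 (members 3 of 4), and from 2500 nt 18% of 7735 (members 1 of 4). These shares are on the TMM scale. With library size only, edgeR called 4.96% of all tested genes higher and 76.0% lower in Input, and shares by length are not given on that scale. Within the complex, Spearman's rho between length and Input fold change was −0.28 and Pearson's r (log2 length) −0.59 over 31 genes, against −0.20 and −0.23 over 12085 genes. These are descriptions across genes of the same libraries, which share depth and scaling. Members that did not rise have principal transcripts longer than the members' median (NDUFV1 2528 nt, NDUFA10 4915 nt, NDUFS1 11819 nt). The shortest principal transcripts are 1596 nt for NDUFV1 and 2371 nt for NDUFS1. However, NDUFV3, with 4676 nt, rose 4.07-fold, and NDUFA4, with 2130 nt, rose 4.87-fold.

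**Figure D3:**
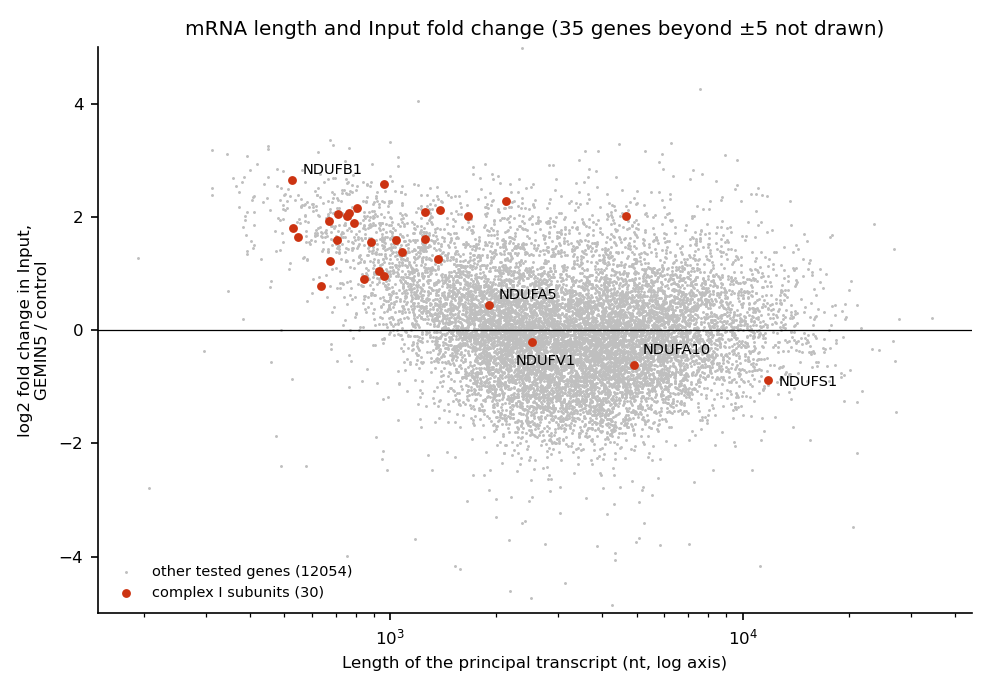
log2 fold change in Input (GEMIN5 against control, TMM scale) against the length of the principal transcript in nt on a log axis, for 30 members and 12054 other tested genes (35 beyond ±5 not drawn). Short genes lie mostly above 0, members included, and the labelled members NDUFS1, NDUFV1 and NDUFA10 lie below 0.

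Junction reads showed where along the mRNAs the Input libraries differed. For each intron, spliced reads per 1000000 counts were compared between the groups with 1 added, on the library-size scale, which lies below the TMM scale by the shift given above. In NDUFV1 the last junction, 183 nt from the 3′ end, went from 31.5 to 19.7 in these units (log2 −0.65), and the junction at 1165 nt from 33.0 to 7.29 (log2 −2.04). NDUFB1, whose junctions lie 107 and 252 nt from the end, was at 1.38 for both.

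Over members' introns with a mean of at least 20 spliced reads, the median was 0.39 for 27 introns under 300 nt from the end, 0.25 for 40 introns from 300 to under 600 nt, −0.03 for 37 from 600 to under 1000 nt and −1.19 for 14 introns of 5 genes from 1000 to under 1500 nt. The 22 introns of NDUFS1 and NDUFA10 that lie 2000 nt or more from the end had a median of −1.59, and 4 introns of 2 genes between 1500 and 2000 nt had 0.93. Introns of all other genes ran from −0.06 under 300 nt to −1.23 from 1000 to under 1500 nt, with −1.26 from 1500 to under 2000 nt and −1.09 from 2000 nt. In polysomes the medians of the members lay between −0.12 and 0.10 in every class. By the median over a gene's introns, NDUFA12 (−0.58), NDUFA8 (−0.65), NDUFS3 (−0.49), NDUFA5 (−0.45) and NDUFV2 (−0.41) were lower in spliced reads, the same sign as their counts on the library-size scale (−0.51, −0.40, −0.34, −0.83 and −0.25). The part of RNA integrity in the length and distance patterns was not tested.

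**Figure D4:**
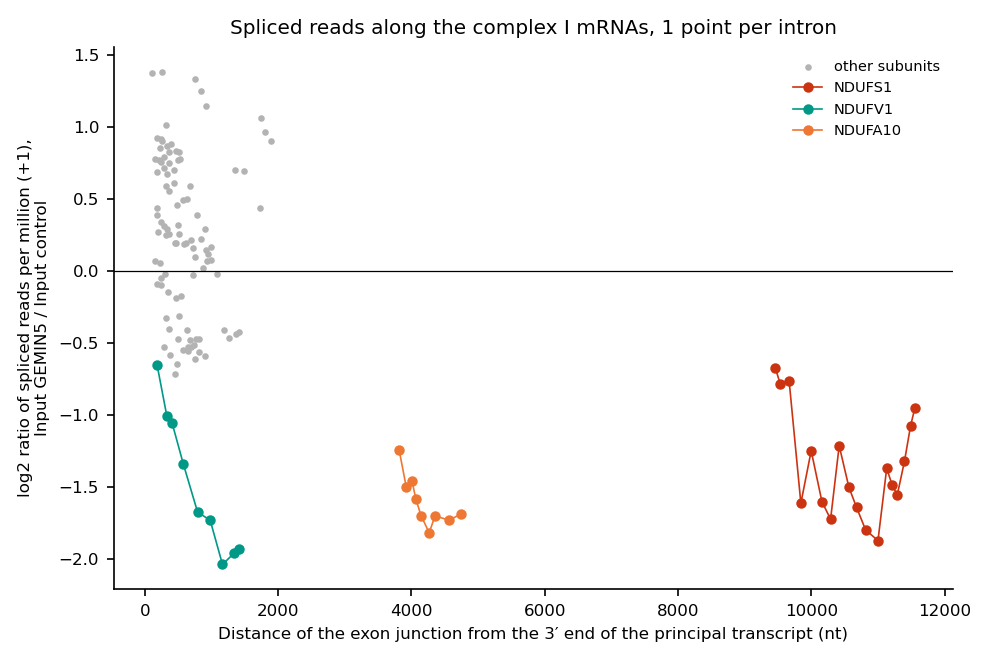
log2 ratio of spliced reads per 1000000 counts (1 added) between Input GEMIN5 and Input control against the distance of the junction from the 3′ end of the principal transcript in nt, 1 point per intron (136 introns of 35 genes). NDUFV1 goes down with distance, and most junctions of the other genes within 600 nt of the end lie above 0. Junctions of NDUFA10 and NDUFS1 at 2000 nt or more, with a mean of at least 20 spliced reads, lie between −0.67 and −1.87. Introns with fewer reads are drawn as well. The 1 added pulls the ratios of introns with few reads, such as those of NDUFS1, towards 0.

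Splicing was measured as percent spliced in (PSI), the share of reads that use an exon or splice site. In Input, 55 events of 20 members could be tested, and 5 were called in 2 genes (limma adjusted p under 0.05), where 4.29% of all tested events were called. By a rule of size (15 points and a gap of 5 between the groups) it was also 5 events, against 3.32% of all. The first gene was NDUFV3, a small accessory subunit near NDUFV1 that is known in a short and a long form, and all 3 of its called events concern the 3′ splice site (acceptor) of its long exon. That exon has 1095 nt and is the third of 4 in its transcript (GENCODE v29, GRCh38), and its length divides by 3. Its first bases and the places of both inner acceptors are shown, on the plus strand, with the AG before each inner junction in capitals.
NDUFV3, first bases of the exon (chr21:42903182-42903211): atgtagtggaaccaaaggagaggggcaagc
NDUFV3, acceptor 229 nt inside (chr21:42903391-42903420): aaagttctgtctccattcAGaaaacagggc
NDUFV3, acceptor 304 nt inside (chr21:42903466-42903495): tcgtcttcatcctcttccAGctcctctgat

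Use of the annotated acceptor was 91.5%, 94.2%, 88.9% and 95% in Input control and 38.9%, 40.7% and 28.6% in Input GEMIN5, a fall of mean PSI from 92.4 ± 2.77 to 36.1 ± 6.54 (SD, n = 4 and 3, limma adjusted p = 0.00206). The acceptor 229 nt inside went from 1.37 ± 1.58 to 29.7 ± 15.3 (limma adjusted p = 0.0191) and that 304 nt inside from 6.25 ± 1.54 to 34.3 ± 10.5 (limma adjusted p = 0.00639). Groups did not overlap for any of the 3 sites. Depth was low, at 14 to 51 corrected reads per library, and with at least 20 reads required these events could not be tested. The exon as a whole was rare: its PSI was 4.59, 4.45, 4.11 and 3.32 in Input control and 1.17, 0.69 and 0.83 in Input GEMIN5. These ranges do not overlap, but the event fell outside the PSI limits and has no test here, since without those limits the fit also called 139 member events that had no difference in PSI. In polysomes the annotated acceptor was used at 93.1 ± 6.51 without and 80.9 ± 9.04 with the plasmid (SD over 4 libraries), the innermost at 4.83 ± 2.36 and 14.2 ± 8.10, and neither was called (limma adjusted p = 0.964 for both).

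The second gene was NDUFC1, a small membrane-arm subunit, at a 5′ splice site (donor) of its first exon in a transcript of 6 exons. The upstream donor ends the exon at position 139300964 of chromosome 4 and the downstream one at 139300602 (minus strand, GRCh38). The upstream junction is shown with the first bases of the intron in capitals, as the site whose use rose.
NDUFC1, upstream donor (chr4:139300954-139300983, minus strand): tgggcctggctgtcgtatcgGTaatttggt
Its use was 7.48%, 2.91%, 5.76% and 3.17% in Input control and 27.1%, 22.5% and 23.5% in Input GEMIN5 (mean 4.83 ± 2.19 to 24.3 ± 2.40, limma adjusted p = 0.0239), and that of the downstream donor changed by the same amount the other way (limma adjusted p = 0.0331). The groups did not overlap, but the call held in 2 of 7 fits that left out 1 library for the upstream and in 1 of 7 for the downstream donor. For NDUFV3 it held in 7 of 7 for the annotated and the innermost acceptor and in 4 of 7 for that 229 nt inside. In polysomes the upstream donor was used at 2.50% to 16.5% in control and at 0% to 9.14% in GEMIN5 cells, which overlapped.

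Exon 2 of 4 of NDUFA8, a twin cysteine subunit, was chosen after its values were seen and rests on 965 to 1904 corrected reads in the Input libraries. Its PSI was 89.8, 90.6, 90.1 and 93.5 in control and 82.3, 80.6 and 78.3 in GEMIN5 cells. The groups did not overlap, and the event missed the threshold (limma adjusted p = 0.079) but was called when at least 20 reads were required (adjusted p = 0.0419). The exon has 164 nt, a length that does not divide by 3, and is shown for that reason.
NDUFA8, exon 2 (chr9:122152245-122152408, minus strand, GRCh38): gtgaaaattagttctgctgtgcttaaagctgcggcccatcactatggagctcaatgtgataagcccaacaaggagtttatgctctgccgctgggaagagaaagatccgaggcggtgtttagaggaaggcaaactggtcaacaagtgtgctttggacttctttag

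In the other comparisons no member event was called. In polysomes (GEMIN5 against control) 50 events of 17 members were tested, and limma called 0.0% of all tested events, with 0.0972% past the rule of size and no member among them. The largest differences were −16.4 points for exon 3 of NDUFS1, −12.2 and 9.38 for the NDUFV3 acceptors, 7.22 for an exon of 59 nt in NDUFC1 and 6.61 for a donor of NDUFV3, each with overlapping groups (limma adjusted p = 0.964 for all 5).

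Between polysomes and Input of control cells 50 events of 19 members were tested, where 0.0186% of all events were called by limma and 0.366% passed the rule of size. Exon 3 of NDUFS1 was the member that passed that rule. Its PSI was 81.8, 75.4, 79.7 and 79.6 in Input control and 45.5, 35.5, 62.3 and 69.7 in Polysome control, so that polysomes lay lower without overlap by 25.9 points on average (limma adjusted p = 0.332). Polysome GEMIN5 libraries were at 36.4, 36.8, 52.6 and 21.4, and Input GEMIN5 libraries held only 2 to 6 reads. The exon of 92 nt, the third of 19, does not divide by 3 either.
NDUFS1, exon 3 (chr2:206152419-206152510, minus strand, GRCh38): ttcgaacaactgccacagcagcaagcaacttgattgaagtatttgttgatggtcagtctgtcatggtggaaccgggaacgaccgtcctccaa
The next largest differences were −11.9 and 11.9 points for a pair of NDUFA3 acceptors 3 nt apart, 10.9 for an exon of NDUFB1 and 9.97 for an acceptor of NDUFB3, none of them called.

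**Figure D5:**
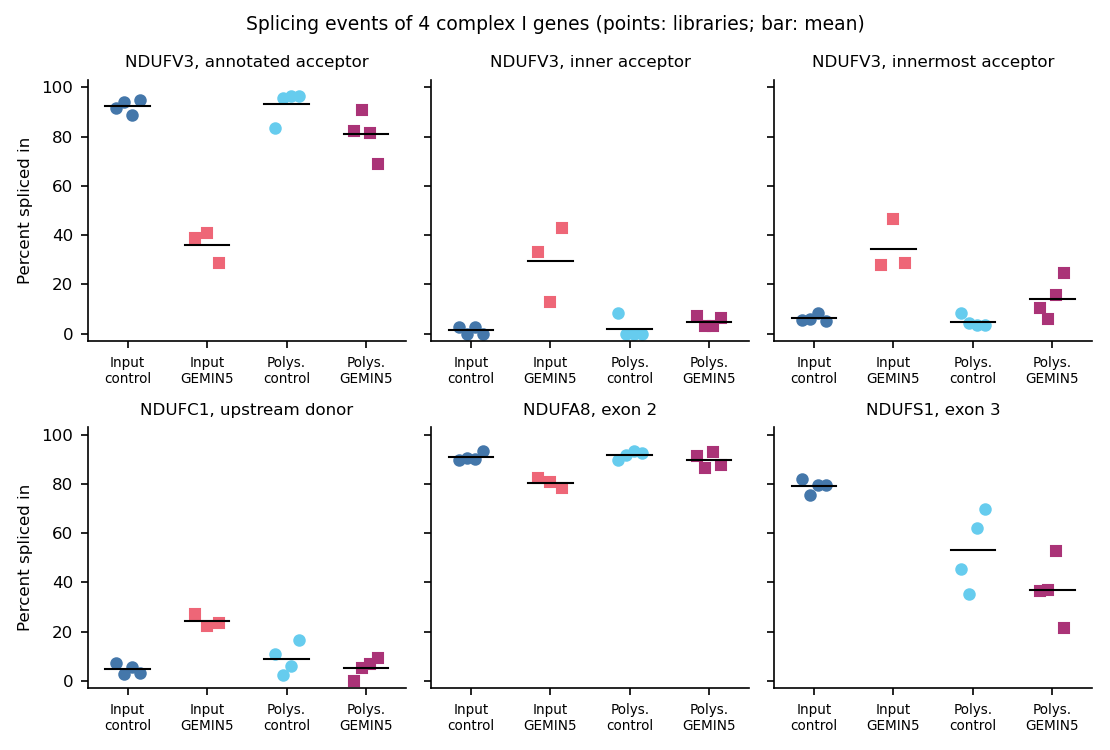
Percent spliced in of 6 events in each library, by group (bar: group mean; libraries under 10 reads and so the Input GEMIN5 group of NDUFS1 not drawn). Input GEMIN5 departs from the other groups in NDUFV3, NDUFC1 and NDUFA8, and polysomes lie below Input control for exon 3 of NDUFS1.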

How the data were processed

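Poly(A) RNA of 15 libraries in 4 groups was analysed from files deposited by the authors. Whole-number read counts per gene were made with STAR 2.7.10a and featureCounts on GRCh38/hg38, per the submitters' processing notes. The use of strand in counting is not given in the sources used here, so reads of overlapping, antisense or near-identical genes are uncertain. Splicing events came as a percent (PSI, percent spliced in) table that the authors deposited, whose column names per the file headers are those of vast-tools. Its quality column, of the unit other (text), holds corrected read numbers and was deposited by the authors in the same table.

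All genes passing filterByExpr (12197) were fitted at once over 15 libraries with edgeR 4.0.16 (R 4.3.3, TMM, robust quasi-likelihood test, Benjamini-Hochberg, adjusted p under 0.05). DESeq2 1.42.0, other scalings, no filter, the compared groups only, a replicate block and leaving out each library were alternatives. Events were fitted with limma 3.58.1 on log2 odds (0.5 added to inclusion and exclusion reads) where each library compared had 10 or more corrected reads and PSI reached 5 or above in one library and 95 or below in another. Spliced reads came from introns matched to the APPRIS principal transcripts of GENCODE v29. Tests were checked on simulated data with 200 changed genes or events. No broad shift in composition like that of Input GEMIN5 was built in, so the check does not bear on the choice of scale.

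Named members were the core subunits, NDUFAB1, NDUFA4 and the 4 largest and 4 smallest changes in 3 contrasts (19 genes). Named events were the called ones, or else the 5 largest differences. The members and lists were chosen with earlier results of these data known. The values of 1 member, which counts, medians and fits include, are not reported here.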

Additional observations from a re-analysis of the deposited data

Results flagged for a closer look

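The GEMIN5 effect differed between polysomes and Input, by edgeR's test of the difference itself, for 16 of the 19 members named by rule. On the log2 scale (polysomes minus Input) the difference was −2.68 for NDUFB1, −2.42 for NDUFA3, −2.24 for NDUFA4, −2.14 for NDUFA2, −2.0 for NDUFB2, −1.92 for NDUFB9, −1.81 for NDUFS5, −1.73 for NDUFS8, −1.70 for NDUFB7, −1.58 for NDUFAB1, −1.53 for NDUFS6, −1.48 for NDUFS7, −1.07 for NDUFV2 and −0.995 for NDUFS3. It was 0.472 for NDUFA10 and 0.747 for NDUFS1, whose Input levels were lower in GEMIN5 cells. With library size only, the difference was not called for NDUFS8 (−0.41, edgeR adjusted p = 0.0644), NDUFB7 (−0.39), NDUFAB1 (−0.28), NDUFS6 (−0.23) and NDUFS7 (−0.15), and its sign turned for NDUFV2 (0.22, not called) and NDUFS3 (0.31, called higher, edgeR adjusted p = 0.0449). No library of these 19 genes stood apart from its group of 4 by Dixon's criterion in 57 groups examined. The criterion looks at a single extreme library, so it cannot flag libraries that are low together, as in Polysome control for NDUFA3. Input GEMIN5, with n = 3, was not examined.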

How the results depend on the processing

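Without 1 library at a time, 29 to 31 members were called in Input (25 to 28 higher, 3 to 4 lower), 0 in polysomes, 27 to 29 for the difference of effects (1 to 3 higher, 24 to 27 lower), 6 to 8 between polysomes and Input in control cells (1 higher, 5 to 7 lower) and 26 to 28 in GEMIN5 cells. Called member events in Input were then 2 to 5, with 3 left without Input control replicate 2 or Input GEMIN5 replicate 2 and 2 left without Input control replicate 4 or Input GEMIN5 replicate 1 or 3, and 0 in the other comparisons. For the difference of effects, 1 member instead of 2 was higher without Input control replicate 2 or 3, Input GEMIN5 replicate 1 or 3, Polysome control replicate 1 or 2, or Polysome GEMIN5 replicate 1, 2 or 3. NDUFV2 was called lower in polysomes of control cells (−0.42, edgeR adjusted p = 0.0195) without Polysome control replicate 2.

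With library size only, 17 members were higher and 8 lower in Input, 7 and 13 for the difference of effects, 22 and 0 (22 called) between polysomes and Input in control cells, and 12 and 10 in GEMIN5 cells. The sign turned in Input for 7 members: NDUFA5 (−0.83), NDUFA12 (−0.51), NDUFA8 (−0.40), NDUFS3 (−0.34), NDUFV2 (−0.25), NDUFS4 (−0.075) and NDUFB6 (−0.03). Between polysomes and Input in control cells it turned for 23 of 31 members, among them NDUFA4 (0.45), NDUFAB1 (0.32), NDUFB1 (0.46), NDUFB9 (0.41), NDUFS3 (0.054), NDUFS5 (0.41), NDUFS6 (0.31), NDUFS7 (0.46), NDUFS8 (0.33) and NDUFV1 (0.14). The factor itself sets this shift, since it moves all genes of a library together. When ribosomal protein and mitochondrially encoded genes were left out of the scaling, an alternative chosen after seeing the data, NDUFA5 was at −0.24 in Input, 4 members were higher for the difference of effects and 5 in GEMIN5 cells. Of all 11983 genes tested on that scale, edgeR called 5438 higher for the difference of effects and 7290 higher in GEMIN5 cells. With that denominator the members' shares were 1.68% (control) and 3.47% (GEMIN5) in Input, and 1.72% and 1.73% in polysomes. With DESeq2, NDUFV1 was called lower in Input (−0.26, adjusted p = 0.0499), and 30 genes higher and 57 lower in polysomes.

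Without Input control replicates 3 and 4, also chosen after seeing the data, the Input counts were 27 higher and 3 lower as before, 1 member was higher for the difference of effects, 4 members were called between polysomes and Input in control cells (0 higher), and 1 member event was called in Input (the annotated NDUFV3 acceptor). Fitting only the groups compared left 0 members higher between polysomes and Input in control cells (NDUFA5 0.33, edgeR adjusted p = 0.051). Member events called in Input numbered 1 with at least 20 reads, 224 with no limit on PSI (of 609 tested, 139 of them with no difference in PSI, where 44% of all 78949 events were called) and 2 with the replicate block, and those between polysomes and Input 3 with no limit and 1 by the rule of size. Without the 3 low polysome libraries edgeR called 5 genes higher and 1 lower in polysomes.

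The replicate numbers did not pair the samples: deviations of same-numbered libraries correlated at −0.56 to 0.49 and others at −0.54 to 0.59. The replicate block left 30 members called in Input, 0 in polysomes, 28 for the difference of effects, and 6 and 27 between polysomes and Input. For the named members, 292 of the alternative values in Input, 304 in polysomes and 300 between polysomes and Input in control cells kept the call. A called member there stayed called in the same direction. One that was not called stayed so, whatever its sign. The cause of the changes other than the shift in scale and fewer reads or libraries was not tested. Few junction reads limit the NDUFV3, NDUFC1 and NDUFS1 events, and 3 Input GEMIN5 libraries limit every Input comparison.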
